A study of Mus musculus with 6 samples.

Results

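Tanycytes of the mouse hypothalamus were taken as the nuclei that carried a small set of transcripts, and 165 of the 39665 nuclei with at least 1000 UMIs (unique molecular identifiers, each counted as 1 captured transcript) met the rule. The rule asked for at least 1000 UMIs, at least 1 UMI of *Rax*, at least 2 UMIs of *Col23a1* and *Crym* together, at most 2 UMIs of the neuronal genes *Snap25*, *Syt1* and *Rbfox3* together, and fewer than 3 UMIs of the myelin genes *Mog*, *Mag*, *Ermn* and *Mobp* together. The files held 39953 barcodes in 6 libraries of single nuclei (10x 3′ chemistry), made from hypothalami of 18 C57Bl/6 males, 6 to 8 weeks old and with no transgene or deletion named in the labels. Of these mice, 12 had food ad libitum (called fed below) and 6 were fasted for 16 h. Tissue of 6 mice was combined before nuclei were isolated, which gave 1 fasted pool and 2 fed pools made on different days, and each pool gave 2 libraries of nuclei stained with DRAQ5, a DNA dye, and sorted as singlets. The pool is the replicate, so that fed libraries 1 to 4 stand for 2 pools and fasted libraries 1 and 2 for a single one. The labels do not say which fed libraries share a pool.

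Tanycytes are elongated glial cells that line the floor and lower walls of the third ventricle and send a process into the median eminence, the arcuate nucleus or the neighbouring nuclei. They are known for the tight junctions that separate the median eminence from the cerebrospinal fluid, for handling thyroid hormone, for moving circulating hormones into the brain, and for progenitor activity. Beta tanycytes sit on the median eminence and alpha tanycytes above them along the ventricle wall. *Rax* encodes a retinal and hypothalamic homeobox transcription factor, *Col23a1* a transmembrane collagen and *Crym* a crystallin-related protein that binds thyroid hormone.

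Fed libraries 3 and 4 stood apart from the other 4. They gave 7 and 1 tanycytes, against 19 and 25 in fed libraries 1 and 2 and 62 and 51 in fasted libraries 1 and 2. The median tanycyte had 2072, 2318, 4863 and 6492 UMIs in fed libraries 1 to 4, and 2620 and 2815 in the fasted ones. Of the tanycyte UMIs, ribosomal protein genes held 0.417%, 0.415%, 2.60% and 2.82% in fed libraries 1 to 4, against 0.301% and 0.326% after fasting. The lone nucleus of library 4 had a doublet score of 0.381, within the highest 5% of its library. Summed over nuclei, the tanycyte libraries held 41758, 57881, 34296, 6492, 169042 and 144751 UMIs, in the same order, so that 1 UMI was worth 23.9, 17.3, 29.2, 154, 5.92 and 6.91 CPM (counts scaled to a common library total, 1e+06). Pairs of libraries shared 154 barcodes in all, and no tanycyte carried 1 of them.

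The values that chose these nuclei are a description and not a result. *Rax* had 1 UMI in 114 of the 165 nuclei and 8 UMIs at most, and the median nucleus had 7 UMIs of *Col23a1* and *Crym*. Just inside the rule were 11 nuclei with 1 UMI of *Rax* and 2 of *Col23a1* and *Crym*. Just outside were 453 nuclei with no *Rax* UMI that met every other condition. Among these, 73 had at least 10 UMIs of *Col23a1* and *Crym*, of which 3, 2, 3 and 0 came from fed libraries 1 to 4 and 39 and 26 from the fasted ones. Transcripts outside the rule stood close to the tanycyte level in those 73 nuclei, at 3004 CPM for *Slit2* against 2461 CPM in tanycytes, 700.3 against 722.1 CPM for *Deptor* and 384 against 383.1 CPM for *Tshr*. The rule left these nuclei out for want of a *Rax* UMI. Another 16 nuclei met the *Rax*, *Col23a1* and *Crym* conditions and had 6 or more neuronal UMIs.

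Tanycytes made up a larger part of the fasted libraries than of the fed ones when all nuclei were counted, and the groups overlapped when neurons were set aside. They were 0.225% (exact binomial 95% interval 0.136 to 0.352), 0.376% (0.244 to 0.555), 0.110% (0.0443 to 0.227) and 0.0157% (0.000397 to 0.0873) of the nuclei of fed libraries 1 to 4. In fasted libraries 1 and 2 they were 1.04% (0.797 to 1.33) and 0.868% (0.647 to 1.14). The mean was 0.953% ± 0.120 (SD, n = 2 libraries of 1 pool) after fasting and 0.182% ± 0.155 (SD, n = 4 libraries of 2 pools) on ad libitum feeding. Both fasted libraries thus lay above every fed one, but 3 pools cannot reach p 0.05 in an exact permutation test and none was run. Without fed libraries 3 and 4 the difference between the means was 0.652 percentage points in place of 0.771.

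The libraries also differed in how many nuclei were not neurons. Nuclei with at most 2 neuronal UMIs made up 15.3%, 17.1%, 3.27% and 2.79% of fed libraries 1 to 4, and 27.8% and 28.6% of the fasted ones. Of those nuclei, tanycytes were 1.47%, 2.21%, 3.37% and 0.562% in fed libraries 1 to 4, against 3.74% and 3.04% after fasting, so that fed library 3 lay between the fasted libraries. Per 100 astrocyte-rule nuclei, defined below, there were 11.7, 16.8, 17.1 and 3.03 tanycytes on ad libitum feeding and 26.8 and 22.1 after fasting. Depth also bears on a rule that needs 1 UMI of *Rax*, and after each nucleus was thinned to 1000 UMIs the rule found 5, 10, 0 and 0 tanycytes in fed libraries 1 to 4, against 21 and 20 after fasting. The part of neuronal share, sorting and depth in the difference between groups cannot be told apart from that of fasting. The intervals cover counting error only.

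**Figure D1:**
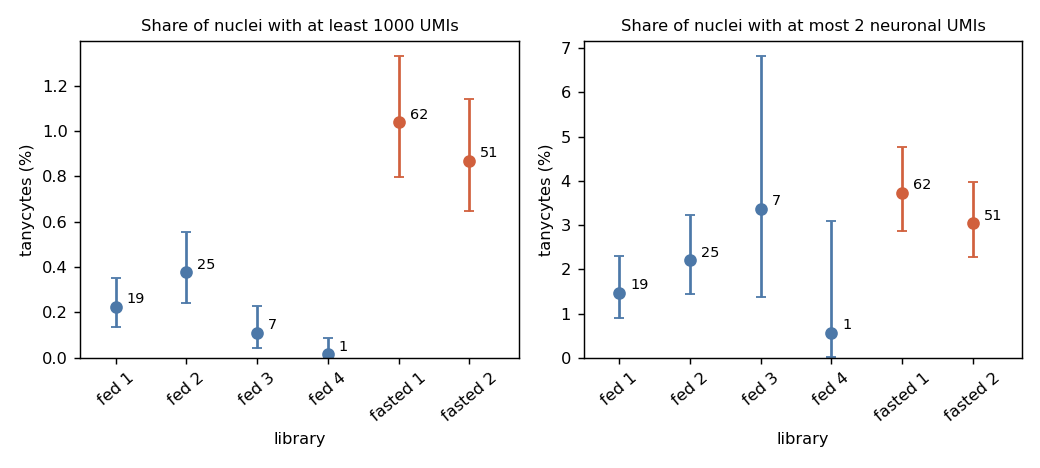
Tanycytes as a percentage of all nuclei with at least 1000 UMIs (left) and of nuclei with at most 2 neuronal UMIs (right) in each library; points are shares, bars exact binomial 95% intervals and numerals the count of tanycytes. On the left the fasted libraries, at 0.868% and 1.04%, lie above all fed ones, and on the right fed library 3, at 3.37%, lies between them.

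Several known tanycyte genes outside the rule were found in many of these nuclei. *Slit2*, a secreted axon guidance ligand, had at least 1 UMI in 150 of the 165 nuclei, *Efna5*, a membrane-bound ephrin ligand, in 149, and *Deptor*, an inhibitor of mTOR signalling, in 105. *Tshr*, the thyrotropin receptor, was found in 92 nuclei and *Fgf10*, a fibroblast growth factor, in 68. *Vim* and *Nes*, intermediate filament genes often used to stain tanycytes, had 16 and 2 UMIs in all, and *Gpr50*, an orphan receptor, had 32. The filament genes were thus close to undetected in these nuclei, unlike *Slit2*, *Efna5* and *Deptor*.

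Of the marker lists of other cell types, some members were at or near 0 in tanycytes and others were present. The ependymal genes *Tmem212*, *Ccdc153* and *Sntn* had 0, 1 and 0 UMIs, while the cilia genes *Cfap54*, *Cfap44*, *Dnah6* and *Cfap46* of the same list had 137, 86, 75 and 56, and the list summed to 1253 CPM. The endothelial genes *Cldn5* and *Pecam1* had 0 and 1, while *Flt1* had 72 in 40 nuclei. The microglial genes *Csf1r*, *C1qa* and *Tmem119* had 0 each. The astrocytic genes *Aqp4* and *Gfap* had 10 and 4 UMIs, while *Gja1*, a gap junction gene of astrocytes and tanycytes alike, had 47, and the astrocyte list summed to 2056 CPM. Peptide transcripts of neurons were present, *Avp* being the most abundant with 36 UMIs. Their summed level was 431.1, 587.4, 1079 and 1694 CPM in fed libraries 1 to 4 and 207 and 241.8 CPM in the fasted ones. In astrocyte-rule nuclei, defined below, it was 517.9, 517.6, 885.6 and 1390 CPM and 144.3 and 132.8 CPM. The peptide level and its lower value after fasting were thus not particular to tanycytes. Genes were also ranked by their mean CPM over the 6 libraries, with no correction for transcript length. The 10 genes with the highest mean were *Malat1*, *Nnat*, *Col25a1*, *Meg3*, *Pcdh9*, *Zbtb20*, CT010467.1, *Trpm3*, *Col23a1* and *Cst3*. In that mean the single nucleus of fed library 4 weighs as much as any other library. CT010467.1 ranged from 556.1 to 7856 CPM by library and *Cst3* from 587.2 to 6677 CPM. In UMIs over all libraries they had 561 and 588, against 1248 for *Col23a1*, so an order by pooled UMIs would differ. CT010467.1 overlaps AY036118 on the same strand and Gm42418 on the other.

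To show what sets tanycytes apart, they were compared with astrocytes, an abundant glial cell type. Astrocyte-rule nuclei, 848 in all with 2134624 UMIs, had at least 3 UMIs of *Aqp4*, *Gja1*, *Slc7a10* and *Agt* together, no *Rax*, under 2 UMIs of *Col23a1* and *Crym*, under 3 UMIs of 5 ependymal genes, and the neuronal and myelin limits of tanycytes. Their median was 2408 UMIs, against 2624 in tanycytes. Counts were summed per pool and cell type, with the pool as a block, and the genes of either rule were left out of the test. Of 8134 genes tested, 662 were higher in tanycytes, which is 8.14% of those tested, and 961 were lower, which is 11.8%, at an adjusted p under 0.05 in edgeR's quasi-likelihood test with Benjamini-Hochberg adjustment. DESeq2 on the same sums called 789 genes in both directions together. Without fed library 3 edgeR called 1262 genes and without fed library 4 1523, against 1623 with all.

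Genes of thyroid hormone handling differed in both directions, with the thyrotropin receptor and enzymes higher in tanycytes and *Slco1c1*, *Hr* and *Klf9* lower. *Tshr* (chr12:91384563-91549808, plus strand, GRCm38) stood at 455, 345.5, 291.6 and 924.2 CPM in the tanycytes of fed libraries 1 to 4 and at 402.3 and 352.3 CPM in the fasted ones, and astrocyte-rule nuclei ranged from 3.36 to 18.2 CPM. The log2 fold change was 5.60 (SE 0.321, adjusted p = 4.06e-30). Its ranges in the 2 cell types did not overlap. *Trhde*, the ectoenzyme that degrades thyrotropin-releasing hormone, was higher by 4.66 (SE 0.349) on the log2 scale, and *Dio2*, the deiodinase that makes active thyroid hormone, by 2.50 (SE 0.562, adjusted p = 9.42e-05), although *Dio2* rested on 28 UMIs, 26 of them in the fasted libraries, and missed the threshold in DESeq2 (adjusted p = 0.260) and in edgeR without fasted library 2. Of the other genes of this list, *Slco1c1*, a thyroid hormone carrier of astrocytes and vessels, was lower by 4.27 (SE 0.474), and so were *Hr*, a thyroid hormone-responsive corepressor gene, and *Klf9*, a target of the hormone, although *Klf9* (log2 fold change -0.98, SE 0.284) missed the threshold in DESeq2 (adjusted p = 0.265). In all, 4 of the 10 genes tested of the 13 listed were higher and 3 lower, beside 8.14% and 11.8% of all genes tested, with a median log2 fold change of 0.24 against -0.02 over all genes tested. The receptors *Thra* and *Thrb* gave -0.02 and -0.52 and did not pass the test.

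Secreted ligands and guidance molecules differed in both directions. *Slit2* (chr5:47983138-48307733, plus strand) stood at 2467, 2004, 1021 and 0 CPM in fed libraries 1 to 4 and at 2899 and 2584 CPM in the fasted ones, against 54.5 to 265 CPM in astrocyte-rule nuclei, a log2 fold change of 3.02 (SE 0.288, adjusted p = 2.64e-23). The 0 is the single nucleus of library 4. *Efna5* stood at 1389, 1348, 845.6, 308.1, 1934 and 2197 CPM in the same order, above all 6 astrocyte sums (63.6 to 90.8 CPM), with a log2 fold change of 4.22 (SE 0.221). *Fgf10* stood at 526.8, 241.9, 262.4, 0, 272.1 and 255.6 CPM against 1.66 to 19.4 CPM, a log2 fold change of 5.90 (SE 0.381). *Frzb*, a secreted antagonist of Wnt signalling, had 62 UMIs in tanycytes and 2 in astrocyte-rule nuclei, a ratio of 145.7 with a counting interval of 38.7 to 1230. *Fgf1*, another fibroblast growth factor, was lower (log2 fold change -2.70, SE 0.377), and *Bmp7*, a bone morphogenetic protein gene, had 0 UMIs in tanycytes against 66 in astrocyte-rule nuclei and was called lower. The ephrin receptor gene *Ephb1* was higher by 3.85 (SE 0.335), the cell adhesion gene *Cdh2* by 1.60 (SE 0.244) and the plexin gene *Plxnc1* by 2.35 (SE 0.359). *Ncam1*, which encodes a neural cell adhesion molecule, was lower by 1.87 (log2 fold change -1.87, SE 0.280). Of the 22 barrier, adhesion and guidance genes tested of 30 listed, 6 were higher and 4 lower, beside 8.14% and 11.8% of all genes tested.

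*Flt1*, the VEGF receptor 1 gene best known from endothelium, had 72 UMIs in 40 tanycytes and 1 UMI in astrocyte-rule nuclei, a ratio of 338.4 with a counting interval of 58.8 to 13550. The 10 endothelial and mural markers summed to 200.3 CPM in tanycytes, of which *Flt1* made up 158.5 CPM and *Pdgfrb*, the next, 24.2 CPM (11 UMIs). *Flt1* had no UMI in fed libraries 3 and 4, and its call was lost in DESeq2 (adjusted p = 0.189).

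Transcription factors separated the cell types in both directions. *Lhx2* and *Six3*, homeobox factors of the developing hypothalamus, were higher in tanycytes by 5.0 (SE 0.652) and 2.51 (SE 0.261) on the log2 scale, and the Wnt receptor gene *Fzd5* by 4.80 (SE 0.570). *Gli1* and *Nkx2-2*, factors tied to hedgehog signalling, were not found in tanycytes, with 0 UMIs against 303 and 169 in astrocyte-rule nuclei. *Gli3*, by contrast, had 80 UMIs in 64 tanycytes, at 176.1 CPM against 234.2 CPM in astrocyte-rule nuclei. Against the 3 counts that a 0 allows over the group, *Gli1* was at least 21.5-fold and *Nkx2-2* at least 12.0-fold lower in tanycytes, and *Gli1* missed the threshold in DESeq2 (adjusted p = 0.0590). *Pax6* was likewise at least 7.52-fold lower. *Sox9*, a factor of glia and progenitors, gave -0.24 and did not pass the test, nor did *Nfia* (-0.38) or *Hes1* (0.52). Of 26 progenitor and patterning genes tested of 33 listed, 6 were higher and 9 lower, beside 8.14% and 11.8% of all genes tested, and their median was -0.31 against -0.02 over all. The hedgehog receptor gene *Ptch1* was lower by 2.61 (log2 fold change -2.61, SE 0.301), as was the Notch target *Hes5* (log2 fold change -5.12, SE 0.539).

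Of the tanycyte markers that the rule did not use, 12 of the 13 tested of 20 listed were higher and none lower, beside 8.14% and 11.8% of all genes tested, with a median log2 fold change of 3.34 against -0.02 over all. Several of these genes come from the study's own tanycyte signatures, which rest in part on these nuclei, so their direction is not independent evidence. The 10 genes with the largest differences upwards, among those higher in all 6 libraries, were *Fndc3c1*, *Abca8a*, *Scn7a*, *Col25a1*, Gm43210, *Cysltr1*, *Frzb*, *Hmcn1*, *Grik3* and *Tshr*. *Fndc3c1* (chrX:106420041-106485401, minus strand), which encodes a protein with fibronectin type III domains, had 216 UMIs in tanycytes and 0 in astrocyte-rule nuclei, at least 338-fold higher. *Abca8a*, a lipid transporter gene of the ABC family, was at least 84.6-fold higher on 54 UMIs. *Hmcn1*, which encodes an extracellular matrix protein, and *Grik3*, a kainate receptor subunit, were higher in all 6 libraries by 6.06 (SE 0.349) and 6.00 (SE 0.306). Gm43210 lies within *Col25a1* on the same strand, so its reads cannot be told from those of *Col25a1*.

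All 10 tested astrocyte markers outside the astrocyte rule were lower in tanycytes (the astrocyte-rule nuclei were chosen by other astrocyte markers), beside 11.8% of all genes tested, with a median log2 fold change of -3.26 against -0.02 over all. They differed in degree. *Gpc5*, a glypican gene, stood at 191.6, 362.8, 29.2, 0, 76.9 and 69.1 CPM in tanycytes against 2663 to 6402 CPM, a log2 fold change of -5.38 (SE 0.259). *Slc1a3*, the glutamate transporter GLAST, stood at 1126, 950.2, 758.1, 924.2, 1006 and 1071 CPM in tanycytes against 1489 to 2570 CPM, a log2 fold change of -1.22 (SE 0.286, adjusted p = 2.07e-04). *Slc1a3* was thus abundant in both cell types, and its call was lost without fed library 1, 2 or 3. *Slc1a2*, the glutamate transporter GLT-1, gave -2.56 (SE 0.305). The 10 genes with the largest differences downwards among those lower in all 6 libraries, *Egfr*, *Gli1*, *Tril*, Gm4491, Gm26703, *Pantr1*, *Nkx2-2*, *Slitrk2*, Gm20646 and A830019P07Rik, had 0 UMIs in tanycytes. Gm26703 overlaps *Sparcl1* on the other strand and Gm20646 overlaps *Pou3f3* on the same strand. *Egfr*, the epidermal growth factor receptor gene, had 464 UMIs in astrocyte-rule nuclei and was at least 32.9-fold lower in tanycytes.

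Lipid and ketone handling genes were lower in tanycytes or did not pass the test. Of 31 listed genes, 25 were tested, 14 were lower and none higher, beside 11.8% and 8.14% of all genes tested, with a median log2 fold change of -1.13 against -0.02 over all. *Acsl3*, an acyl-CoA synthetase, stood at 95.8, 86.4, 116.6, 308.1, 136.1 and 138.2 CPM in tanycytes against 605.4 to 2062 CPM in astrocyte-rule nuclei, below them in every library, a log2 fold change of -2.87 (SE 0.240, adjusted p = 2.41e-19). *Acsbg1*, another acyl-CoA synthetase, gave -3.68 (SE 0.386), *Ppargc1a*, a coactivator of mitochondrial genes, -2.61 (SE 0.379), and *Ppara*, the nuclear receptor for fatty acids, -3.36 (SE 0.655). *Cpt1a*, the gate of mitochondrial fatty acid uptake, gave -0.01 and did not pass. In DESeq2, *Acsl3*, *Acsbg1*, *Ppargc1a* and *Ppara* stayed below an adjusted p of 0.05, while *Oxct1*, *Hadha*, *Bdh1*, *Fabp5*, *Scd1* and *Angptl4* did not.

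Cilia genes of the ependymal marker list were higher in tanycytes than in astrocyte-rule nuclei, in 6 of the 6 tested, beside 8.14% of all genes tested. Among them, *Stk33* missed the threshold in DESeq2 (adjusted p = 0.184). The astrocyte rule limits 5 other ependymal genes, so the comparison of this list is not independent of that rule. *Dnah6*, an axonemal dynein gene, stood at 167.6, 276.4, 29.2, 0, 224.8 and 89.8 CPM in tanycytes and had 75 UMIs against 2, a ratio of 176.2 with a counting interval of 47.1 to 1482. *Cfap44*, a cilia- and flagella-associated gene, stood at 311.3, 293.7, 87.5, 0, 165.6 and 172.7 CPM, with a log2 fold change of 3.08 (SE 0.315, adjusted p = 7.71e-15). Over the whole list of 14, the summed level was 1253 CPM in tanycytes, 101.7 CPM in astrocyte-rule nuclei and 6012 CPM in 38 ependymal-rule nuclei (at least 3 UMIs of *Dnah12*, *Spag17*, *Cfap54*, *Tmem212* and *Ccdc153*, no *Rax*, and the other limits of the astrocyte rule). The ependymal rule selects on genes of this list and the astrocyte rule caps them, so the order of the classes is a description. Tanycytes lay between the other classes in this list, with *Cfap54* its most abundant gene at 137 UMIs. Ependymal-rule nuclei numbered 11, 5, 0 and 1 in fed libraries 1 to 4 and 11 and 10 after fasting, too few for the planned test, so levels stand side by side only. *Slit2* was at 1019 CPM in ependymal-rule nuclei and 2461 CPM in tanycytes, *Deptor* at 30.0 and 722.1 CPM, and *Col25a1* at 69.9 and 4830 CPM.

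**Figure D2:**
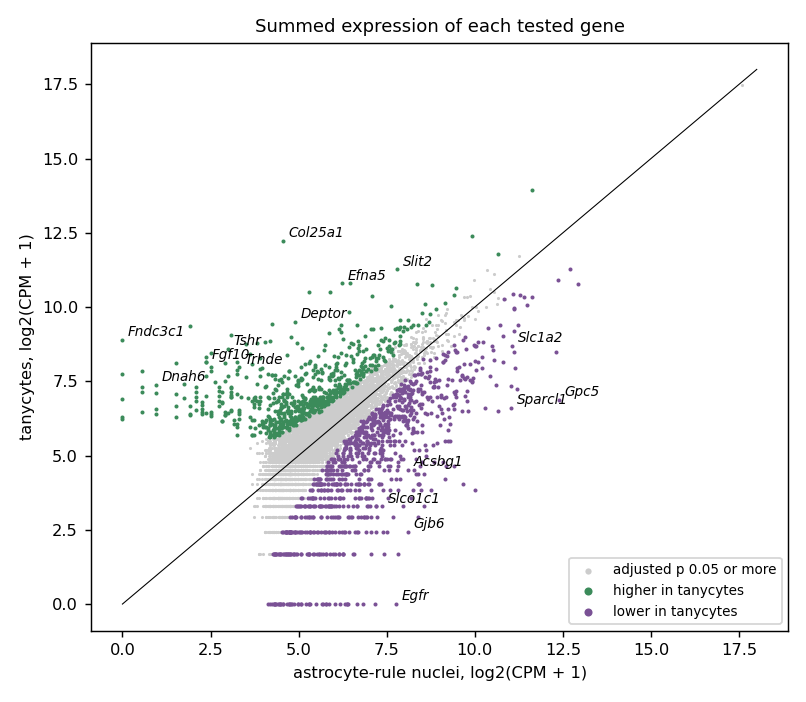
Summed level of each tested gene in astrocyte-rule nuclei (x axis) and tanycytes (y axis), both as log2(CPM + 1), with the line of equal level; green points were higher and purple points lower in tanycytes at an adjusted p under 0.05 (edgeR), and the labelled genes were chosen after their values were seen. *Fndc3c1*, at 0 CPM in astrocyte-rule nuclei, and *Egfr*, at 0 CPM in tanycytes, mark the extremes.

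Tanycytes were not uniform, and *Scn7a* and *Col25a1* divided them. *Scn7a* encodes the sodium-level sensor Nax and *Col25a1* (chr3:130131501-130599877, plus strand) a transmembrane collagen, and both are known markers of beta tanycytes, *Scn7a* also naming a tanycyte subcluster of the study. Of the 165 nuclei, 78 had no UMI of either gene, 10 had 1 UMI and 77 had at least 2, with a median of 31 and a maximum of 81 among the last. Nuclei with at least 2 UMIs were 36.8%, 44.0%, 85.7% and 100% of tanycytes in fed libraries 1 to 4 and 40.3% and 52.9% in fasted libraries 1 and 2. With nuclei pooled over libraries this was 48.1% of 52 fed and 46.0% of 113 fasted tanycytes, a description, since nuclei are not replicates of a condition. The groups overlapped, and the highest shares were those of the 7 and 1 deep nuclei of libraries 3 and 4. In astrocyte-rule nuclei, which should lack these genes and had a median of 2408 UMIs, 53 of 848 had at least 1 UMI (6.25%, against 87 of 165 tanycytes) and 1 of 848 at least 2.

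**Figure D3:**
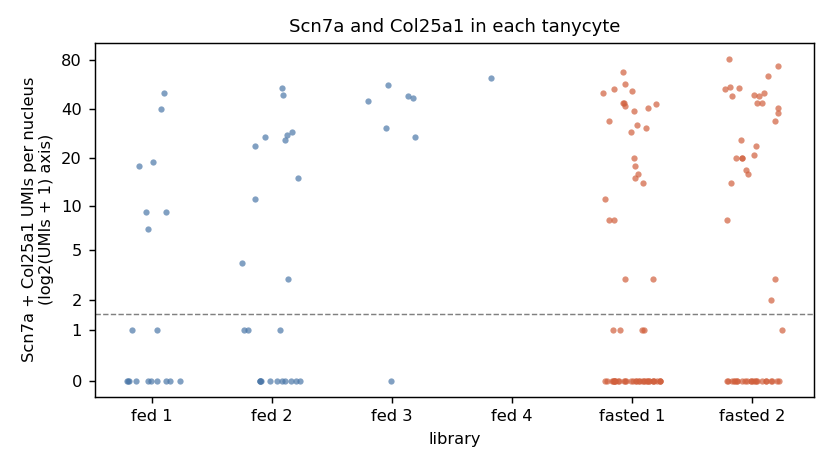
*Scn7a* plus *Col25a1* UMIs in each of the 165 tanycytes by library, on a log2(UMIs + 1) axis, with points spread sideways to be visible; the dashed line parts nuclei with at least 2 UMIs from those with fewer. In every library with more than 7 tanycytes both kinds were present, with 78 nuclei at 0 in all.

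The 77 positive nuclei had a median of 3065 UMIs and the 78 negative ones 2236. Doublet scores moved with the groups as well. Their median was 0.0414 and 0.0462 in positive and 0.0188 and 0.0223 in negative nuclei of fed libraries 1 and 2, and 0.0221 and 0.0248 against 0.00267 and 0.00389 in fasted libraries 1 and 2. Only 2 of the 165 tanycytes lay in the top 5% of their library, and the comparison of the groups gave 133 calls without such nuclei in place of 152. The part of the scores in the differences was not otherwise tested. Libraries 3 and 4 on ad libitum feeding did not hold the planned minimum of 5 nuclei of both kinds. The test was therefore made on the other 4 libraries, with the pool as a block and *Scn7a*, *Col25a1* and the rule's genes left out, a choice made after the data, and the calls of both versions, had been seen. Of 1612 genes tested, 72 were higher in positive nuclei (4.47% of those tested) and 80 lower (4.96%) in edgeR. On all 6 libraries 121 genes were called, with *Rax* at 2 UMIs or more 8, without fasted library 1 64, without fasted library 2 94, and DESeq2 on the 4 libraries called 20.

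Genes higher in the positive nuclei were led by *Fndc3c1*. It was found in 46 of 77 positive nuclei, in 0 of 78 negative ones and in none of the 848 astrocyte-rule nuclei. Its level in positive nuclei was 655.9 and 682.4 CPM in fed libraries 1 and 2 and 1154 and 759 CPM in the fasted ones, at least 50.8-fold above the negative nuclei (edgeR adjusted p = 8.55e-09, DESeq2 adjusted p = 0.705). After thinning to 2000 UMIs it was found in 54.1% of positive nuclei. *Sntb2*, which encodes a syntrophin, had 84 UMIs against 1, a ratio of 66.3 with a counting interval of 11.6 to 2649, and *Rgs7bp*, which encodes a binding partner of G protein regulators, 96 against 3, a ratio of 25.3 (8.39 to 124.6). *Ano5*, an anoctamin gene, *Abca8a* and *Cysltr1*, a leukotriene receptor gene, were at 0 UMIs in negative nuclei and at least 10.3-fold, 12.1-fold and 7.37-fold higher in positive ones. The rule for named genes added *Ccnjl*, *Tll1*, a metalloprotease gene, and Gm43210 and Tbx3os1, of which Gm43210 lies within *Col25a1*, a gene used to form the groups, and Tbx3os1 overlaps *Tbx3* on the other strand. Of these, Gm43210, *Sntb2*, *Ccnjl* and *Rgs7bp* were also called by DESeq2.

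Among the listed genes, *Deptor* stood at 1093 and 784.7 CPM in positive nuclei of fed libraries 1 and 2 and at 1336 and 1069 CPM in those of the fasted libraries, against 313.2, 229.8, 420.9 and 239.7 CPM in negative nuclei, so that the ranges did not overlap. Its log2 fold change was 1.76 (SE 0.314, edgeR adjusted p = 1.26e-04, DESeq2 adjusted p = 0.110). *Trhde* was higher by 2.90 (SE 0.482, edgeR adjusted p = 5.54e-05, DESeq2 adjusted p = 0.110), at 655.9, 238.8, 546.4 and 322 CPM against 156.6, 46.0, 39.5 and 36.9 CPM. *Tshr* (-0.92) did not pass the test. Genes of the barrier, adhesion and guidance list split. *Cdh2* (1.41, SE 0.326), the neuregulin receptor gene *Erbb4* (1.70, SE 0.301) and the claudin gene *Cldn10* (3.04, SE 0.851) were higher. *Flt1* (-2.55, SE 0.499), *Ephb1* (-2.52, SE 0.456), *Ctnna2* (-1.47, SE 0.407) and *Slit2* (-0.99, SE 0.248) were lower. That is 3 higher and 4 lower of 17 tested, beside 4.47% and 4.96% of all genes, with a median of 0.31 against -0.003 over all genes tested, and none of the 7 passed in DESeq2. *Meg3*, a long noncoding RNA abundant in neurons, was higher by 1.78 (SE 0.217), at 6278 to 8828 CPM against 1562 to 2723 CPM, and was called by DESeq2 too. The summed level of the neuronal list, in which *Meg3* is the most abundant gene, was 9601 CPM in positive and 4178 CPM in negative nuclei, and its part in these differences was not tested.

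Genes higher in the negative nuclei included known alpha tanycyte markers. All 3 that were tested of 9 listed differed this way, beside 4.96% of all genes tested, and 1 of them, *Prr16*, names a tanycyte subcluster of the study and is not independent evidence. *Slc7a11*, the cystine and glutamate exchanger, had 54 UMIs in 17 of 78 negative nuclei and 1 UMI in 1 of 77 positive ones, 68.4-fold lower in the latter with a counting interval of 11.8 to 2752 (edgeR adjusted p = 1.35e-06). *Prr16* stood at 164, 238.8, 242.9 and 379.5 CPM in positive nuclei and at 1148, 689.3, 1171 and 1512 CPM in negative ones, a log2 fold change of -2.08 (SE 0.327). *Vcan*, the matrix proteoglycan versican, stood at 24.3 to 126.5 CPM and 276.5 to 469.8 CPM, a log2 fold change of -2.33 (SE 0.431), which missed the threshold without fasted library 1. In each of these genes the ranges over the 4 libraries did not overlap. *Vcan* is also on the oligodendrocyte precursor list, which summed to 170.4 CPM in positive and 515.2 CPM in negative nuclei, pooled over the 6 libraries, *Vcan* making up 63.4 and 356.7 CPM of it. The endothelial and mural list summed to 71.4 and 373.7 CPM, of which *Flt1* made up 47.6 and 305.7 CPM. The part of these lists in the differences was not tested. The alpha tanycyte markers *Tgfb2* and *Cd59a* did not enter this test. Of 11 beta tanycyte markers, 8 were tested against astrocyte-rule nuclei, where 6 were higher (8.14% of all genes) and none lower (11.8%), and 3 between the tanycyte groups, where *Fndc3c1* alone passed (4.47% of all genes were higher) while *Frzb* (1.16) and *Fgf10* (0.64) did not.

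The astrocytic transporter genes *Slc1a2* and *Slc6a11*, but not *Slc1a3*, were also called higher in the negative nuclei in edgeR. *Slc1a2* stood at 54.7, 136.5, 279.3 and 138 CPM in positive and at 887.3, 919, 762.9 and 755.9 CPM in negative nuclei, a log2 fold change of -2.31 (SE 0.377, edgeR adjusted p = 4.39e-05). *Slc6a11*, the GABA transporter GAT-3, gave -3.46 (SE 0.715, DESeq2 adjusted p = 0.1255), while *Slc1a3* gave 0.44 and did not pass. Of 14 astrocyte markers 4 were tested and 2 were lower in positive nuclei, beside 4.96% of all genes tested, with a summed level of 1693 CPM in positive and 2621 CPM in negative nuclei, pooled over the 6 libraries, while *Aqp4* and *Gfap* had 10 and 4 UMIs in all tanycytes. *Pcsk2*, a prohormone convertase gene, gave -3.61 (SE 0.511), *Zeb2*, a zinc finger repressor, -2.96 (SE 0.516), and *Cadm2*, an adhesion molecule gene, -2.72 (SE 0.401). The other genes by the rule were 3300002A11Rik, *Galnt16*, Gm3764, *Kcnh7* and *Kirrel3*. DESeq2 also called *Slc7a11*, *Pcsk2*, 3300002A11Rik, *Cadm2*, *Prr16* and *Slc1a2*. Pooled over the 6 libraries, the ependymal list summed to 713.5 CPM in positive and 1965 CPM in negative nuclei, and 1 of the 4 genes tested, *Cfap54*, was lower in positive nuclei, beside the same 4.96% (-1.24, SE 0.372), a call lost without any 1 of the 4 libraries.

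**Figure D4:**
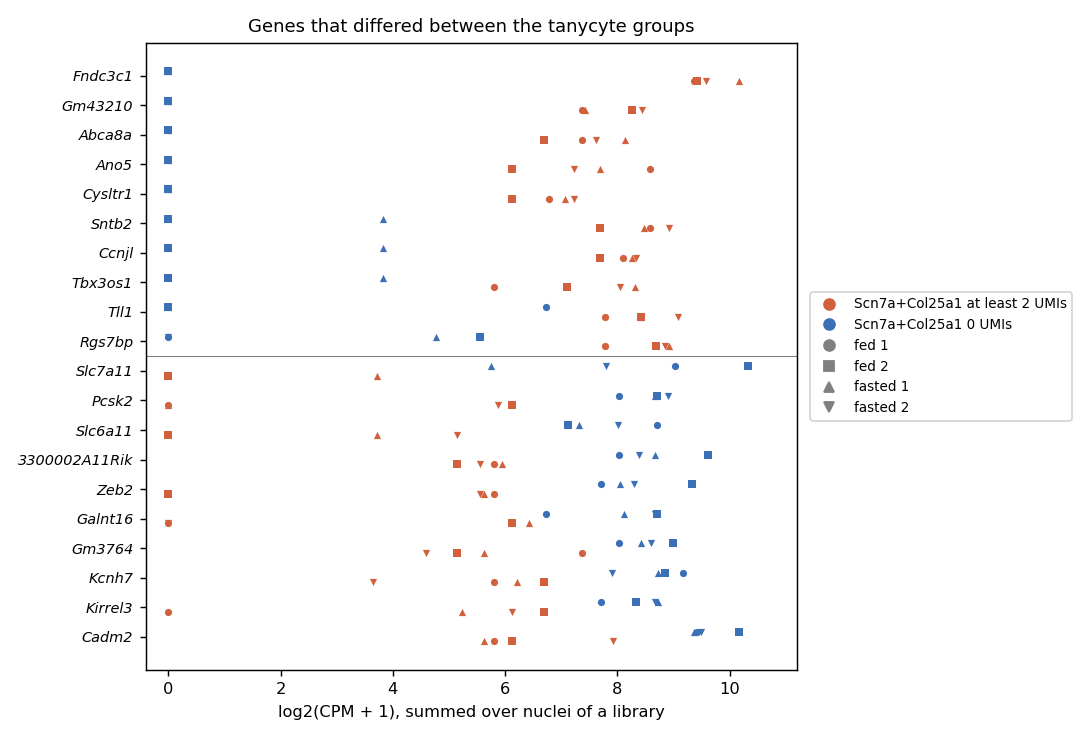
Level, as log2(CPM + 1), of the 10 genes most raised (above the line) and the 10 most reduced (below the line) in tanycytes with at least 2 UMIs of *Scn7a* and *Col25a1* (red), against tanycytes with none (blue); each symbol is 1 library, the symbols being 2 fed and 2 fasted libraries. *Fndc3c1* is at 0 in every negative sum and between 655.9 and 1154 CPM in the positive ones.

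The comparison of fasted with fed tanycytes asked whether the 16 h fast moved their transcripts. The fasted libraries come from 1 pool, so the fasted side has no replicate and was assumed to vary like the 2 fed pools. It called 0 of 2819 genes tested, 0.0% of them, in edgeR's quasi-likelihood test under the pooling of fed libraries that gave each gene its largest p. The smallest adjusted p was 0.335. Unadjusted, 85 genes had p under 0.05 in edgeR, 13 higher and 72 lower after fasting, which is below a 0.05 share of the genes tested. Keeping the largest p lowers such a count. DESeq2 called 0 genes with 30 at an unadjusted p under 0.05. If libraries 1 and 3 and libraries 2 and 4 were the pools, 45 genes were called, 2 higher and 43 lower, and if libraries 1 and 4 and libraries 2 and 3 were the pools, 61 genes, 3 higher and 58 lower. With libraries 1 and 2 and libraries 3 and 4 as the pools 0 were called. Without fed libraries 3 and 4 a fit needs libraries 1 and 2 to be separate pools, which the labels do not give, and its count of 0, with 185 at an unadjusted p under 0.05, adds nothing to the result. The labels do not say which fed libraries share a pool. In tanycyte number and in the ribosomal share given above, libraries 1 and 2 lay close together and so did libraries 3 and 4, and that pooling gave 0 calls. Of the 2819 genes, 1742 had at least 10 UMIs in both fasted libraries and in no fed one, and 1460 had no UMI in fed library 4, so that many genes entered through the fasted libraries alone.

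As a description with no test, 457 genes had both fasted values above the 4 fed values, which is 16.2% of the genes tested, and 53 had both below, or 1.88%. Without fed libraries 3 and 4 the number of genes that did not overlap, in both directions together, was 1225 in place of 510. Genes that reached the count minimum through the fasted libraries alone had to be high there, so nothing is read from the counts of list members, or from the ratios and gaps of single genes, that follow. Of the 9 glucocorticoid- and fasting-responsive genes tested of 24 listed, 5 lay above the fed range (*Zbtb16*, *Fkbp5*, *Foxo1*, *Foxo3* and *Sesn1*) and 1 below (*Klf9*). *Zbtb16*, a zinc finger factor induced by glucocorticoids, stood at 23.95, 0, 29.2 and 0 CPM in the fed libraries and at 112.4 and 89.8 CPM in the fasted ones, 32 UMIs against 2, a ratio of 7.16 with a counting interval of 1.83 to 61.7. *Fkbp5*, a chaperone of the glucocorticoid receptor, stood at 71.8, 51.8, 116.6 and 0 CPM and at 159.7 and 117.4 CPM, so that the lower fasted library was level with fed library 3. *Foxo3*, a transcription factor restrained by insulin signalling, had 2 UMIs on ad libitum feeding and 23 after fasting, a ratio of 5.15 with a counting interval of 1.27 to 45.0. None passed the test, the adjusted p being 1.0 for each.

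*Dio2* had 0, 2, 0 and 0 UMIs in fed libraries 1 to 4 and 13 in each fasted library. Its level was thus 0 to 34.6 CPM on ad libitum feeding and 76.9 and 89.8 CPM after fasting. The gene reached the count minimum through the fasted libraries alone, so its higher level there is a description. The log2 fold change was 2.24 (SE 1.16, unadjusted p = 0.0541, adjusted p = 1.0 in edgeR), and the gene did not pass. It was found in 3.85% of fed and 16.8% of fasted tanycytes, and in 2.86% and 11% after thinning to 2000 UMIs. *Tshr* and *Trhde* had overlapping ranges between the groups, with values given above for *Tshr*. Of 8 thyroid genes tested, *Dio2* lay above and *Klf9* below all fed libraries, where 16.2% of all genes tested lay above and 1.88% below.

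*Slit2* and *Deptor* lay above all fed libraries after fasting, at 2584 to 2899 CPM against 0 to 2467 CPM and 753 to 863.7 CPM against 379.1 to 622.6 CPM. Of the 13 tanycyte markers tested, 4 lay above and 1 below, beside the same 16.2% and 1.88%, the others being *Kctd14* and *Dio2* above and *Ptn* below. *Col25a1* overlapped, at 3377, 4302, 5540 and 7086 CPM on ad libitum feeding and 4005 and 6155 CPM after fasting, as did *Scn7a*, at 311.3, 414.6, 1866 and 2465 CPM and 597.5 and 531.9 CPM. None of the 8 clock genes tested and none of the 4 lipid and ketone genes tested lay outside the range of the other group. *Slc7a11* stood at 239.5, 483.8, 29.2 and 0 CPM and at 29.6 and 82.9 CPM. Against fed libraries 1 and 2 it gave a log2 difference of -2.61 and against libraries 3 and 4 of 0.90, and its direction thus depended on which fed libraries were used.

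The 10 genes with the widest gap upwards were *Map3k3*, *Zfp612*, *Zdhhc1*, *Cul4a*, *Plcb1*, *Foxj3*, *Wdr43*, *Cdh22*, *Zbtb16* and *Ccnl1*. *Map3k3*, a MAP kinase kinase kinase, stood at 23.95, 17.3, 0 and 0 CPM on ad libitum feeding and at 100.6 and 103.6 CPM after fasting (log2 fold change 2.54, SE 1.14, adjusted p = 1.0). *Plcb1*, a phospholipase C of receptor signalling, stood at 143.7, 155.5, 116.6 and 0 CPM and at 461.4 and 504.3 CPM (log2 fold change 1.61, SE 0.840, adjusted p = 1.0). *Cdh22*, a cadherin gene, stood at 71.8, 69.1, 58.3 and 0 CPM and at 248.5 and 200.3 CPM. In these genes the 4 fed libraries lay below both fasted ones, by the rule that chose them and among genes that could enter the test through the fasted libraries alone, and the 0 of library 4 is a single nucleus in which 1 UMI would be 154 CPM.

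The 10 genes with the widest gap downwards were *Bsg*, *Fau*, *Lamtor4*, *Ckb*, *Pcsk1n*, *Tuba1a*, *Atp6v0c*, *Tecr*, *Cst3* and *Ptn*. *Bsg*, which encodes basigin, the chaperone of lactate transporters, stood at 455, 224.6, 845.6 and 462.1 CPM on ad libitum feeding and at 65.1 and 110.5 CPM after fasting, with a log2 fold change of -3.02 (SE 0.962, adjusted p = 0.335). *Cst3*, the cystatin C gene, stood at 1724, 1123, 6677 and 1694 CPM and at 745.4 and 587.2 CPM, a log2 fold change of -2.83 (SE 0.956, adjusted p = 0.362). *Ptn*, the growth factor pleiotrophin, stood at 814.2, 967.5, 3557 and 1694 CPM and at 532.4 and 559.6 CPM, with a log2 fold change of -2.32 (SE 0.887, adjusted p = 0.649). In each the fed libraries lay above both fasted ones, with library 3 the highest. Against libraries 1 and 2 alone the log2 difference was -1.79 for *Bsg*, -1.02 for *Cst3* and -0.72 for *Ptn*, and against libraries 3 and 4 alone -3.05, -3.11 and -2.56. In astrocyte-rule nuclei *Bsg* stood at 184.3, 217.9, 601.2 and 490.4 CPM in fed libraries 1 to 4 and 64.7 and 60.5 CPM after fasting. *Cst3* stood there at 1785, 2636, 11850 and 12970 CPM and at 836.2 and 909.4 CPM. The lower level of *Bsg* and *Cst3* after fasting was thus not particular to tanycytes. Fed libraries 3 and 4 also had the highest ribosomal protein share and peptide transcript levels in tanycytes. Mitochondrial genes held 0.108%, 0.100%, 0.452% and 0.924% of tanycyte UMIs in fed libraries 1 to 4, against 0.0674% and 0.0456% after fasting. The neuronal list summed to 6035, 6012, 6677 and 6932 CPM in fed libraries 1 to 4, and to 7927 and 7606 CPM after fasting. The part of these shares and levels in the differences was not tested.

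**Figure D5:**
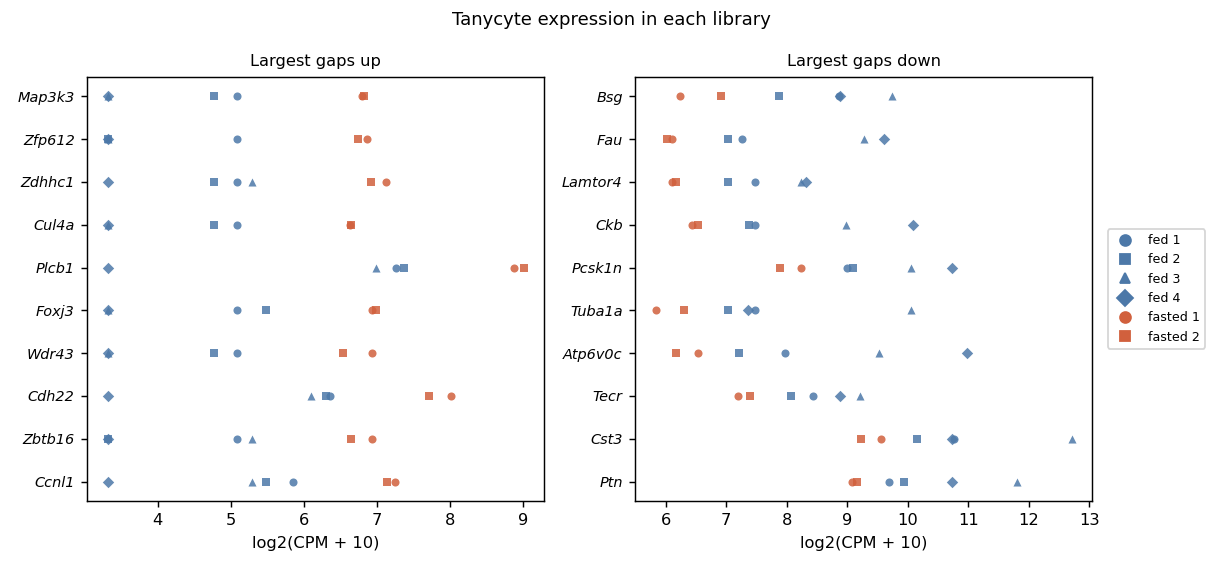
Level in each library, as log2(CPM + 10), of the 10 genes with the widest gap upwards (left) and the 10 with the widest gap downwards (right) between fasted (red) and fed (blue) tanycytes. The fasted points lie together on 1 side, and on the right the farthest fed point is library 3 for *Cst3*, at 6677 CPM, and library 4 for *Atp6v0c*, at 2002 CPM.

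Whether tanycytes answered the fast differently from astrocyte-rule nuclei was tested as the interaction of cell type and condition, with the pool as a block. It called 0 of 8134 genes (0.0%) in edgeR, with 101, below a 0.05 share, at an unadjusted p under 0.05, and was not run in DESeq2. The 5 genes with the lowest p were *Slc7a11*, *Adamts20*, *Hpcal1*, *Fgf12* and *Pmch*. *Slc7a11* was at 362.8, 463.1, 471.9 and 454.1 CPM in fed and 589 and 606.8 CPM in fasted astrocyte-rule nuclei, and the difference of the fasting changes was -2.77 (SE 0.634, unadjusted p = 0.00612, adjusted p = 1). *Fgf12*, a fibroblast growth factor that binds sodium channels, stood at 167.6, 138.2, 0, 0, 360.9 and 483.6 CPM in tanycytes, with a difference of 1.84 (SE 0.448, adjusted p = 1). *St6gal1*, a sialyltransferase gene, was called with DESeq2's size factors, without the highest doublet scores, with at least 2000 UMIs and without fed library 4, and stood at 742.4 CPM in tanycytes of fed library 1 and at 0 to 23.7 CPM in the other 5 libraries.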

How the data were processed

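The authors counted reads with Cell Ranger 5.0.1 on GRCm38 and Ensembl gene models; whether intronic reads were counted is not given in the sources used here. The deposited values are raw UMI counts per gene and nucleus. Nuclei were classed by the rules in the text, with no caller-based removal of doublets. Counts were summed per pool and class and tested with edgeR 4.0.16 (TMM, quasi-likelihood, largest p over the 3 ways to pool the fed libraries, Benjamini-Hochberg, threshold 0.05), or DESeq2 1.42.0 as an alternative, keeping genes that reached 10 counts in 2 or more library sums. The fasted pool is assumed to vary like the others. SE is the log2 fold change over the root of F. The tests were checked on simulated counts, which were drawn with no difference between pools and so vary less than these data. In the simulated fasting comparison, 9 of 67 genes changed 2-fold were called, and 59 of 62 changed 4-fold. Mean CPM are per library. Named genes were members of 23 gene lists that bear on a sentence, the 10 most abundant genes, and the 10 largest changes per direction with the same direction in every library tested, outside ribosomal and mitochondrial genes, with at least 20 UMIs for the fasting gaps, plus 5 for the interaction. The planned ependymal test was not run, and that of the *Scn7a* and *Col25a1* groups was changed, for want of nuclei. Some members of the lists are counted but not reported here by name. Members and lists were chosen with earlier results of these data known. Coordinates are from an older gene annotation of the same assembly. Annotation of overlapping genes is by position, and strand use in counting was not checked.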

Additional observations from a re-analysis of the deposited data

Results flagged for a closer look

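In 36 groups of 4 fed libraries tested by Dixon's criterion, 5 values stood far from the other 3, and chance marks about 1 in 20 groups. The quantities tested were picked after values of these data had been seen. Fed library 3, with 7 tanycytes, had the highest summed level of tanycyte markers outside the rule, 8339 CPM, where the other 3 fed libraries had 5200 to 5545 CPM. It also had the highest *Cst3*, 6677 CPM, and *Tuba1a*, 1050 CPM. The nucleus of fed library 4 had 308.1 CPM of fibroblast and pars tuberalis markers, equal to 2 UMIs at 154 CPM each. *Zfp612* was at 23.95 CPM in fed library 1 and at 0 in the other 3, a value of 1 UMI.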

How the results depend on the processing

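With fasted and fed tanycytes, 0 genes were called as reported, 45 and 61 under the other poolings, 24 with the 6 libraries taken as separate samples, and 26 with the replicate number as a block. Deviations from the group mean gave r = 0.04 and -0.025 over 2819 genes between same-numbered libraries 1 and 2. The 2 fasted libraries deviate from their mean in mirror image, so these values cannot decide whether the numbers pair libraries. Leaving out any 1 library gave 0 calls. The astrocyte comparison, with 1623 calls, gave 670 with *Rax* at 2 UMIs or more, 789 in DESeq2 and 1207 to 1523 without 1 library. The *Scn7a* and *Col25a1* groups, with 152 calls, gave 101 with no filter, 8 with *Rax* at 2 or more, 84 with at least 2000 UMIs, 20 in DESeq2 and 64 to 155 without 1 library. The interaction gave 1 call, *St6gal1*, with DESeq2's size factors, without the highest doublet scores, with at least 2000 UMIs and without fed library 4. The difference in tanycyte share, 0.771 percentage points, was 0.2398 with *Rax* at 2 or more, 1.485 of nuclei with few neuronal UMIs, 0.294 after thinning to 1000 UMIs and 0.687 to 0.856 without 1 library. The 510 non-overlapping genes became 141 with *Rax* at 2 or more, 2096 with no filter, 1225 without fed libraries 3 and 4, and 230 to 846 without 1 library (846 and 835 without fed library 1 or 2, 252 and 230 without fasted library 1 or 2). Among named genes, 1 of 424 fasting values changed sign, *Slc7a11* at 0.895 with libraries 3 and 4 as the fed group. Another 35 passed the threshold under another setting, though none did as reported. Most of these genes were chosen because both fasted libraries lay above, or below, all 4 fed ones. Leaving out libraries could hardly change their sign, so the count of sign changes does not measure stability. By contrast, 169 of 1514 astrocyte values and 52 of 321 group values lost their call. The split on 4 libraries, both DESeq2 fits of the cell type and split comparisons, the thinning and every value without both fed libraries 3 and 4 were chosen after seeing the data. Calls of genes with few UMIs are limited by depth: 1 UMI is 5.92 to 154 CPM per library.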

Other observations

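Several gene groups known from work on tanycytes gave few UMIs. Of 18 retinoid handling genes, 5 entered the astrocyte comparison and 1 passed, beside 11.8% of all genes lower: *Aldh1a1*, which makes retinoic acid, had 3 UMIs in tanycytes and was lower (log2 fold change -5.04, SE 0.492, edgeR adjusted p = 8.58e-16). *Rarres2*, the chemerin gene, had 15 UMIs and gave -0.08. Of 20 glucose sensing and lactate release genes, 7 were tested, 4 were lower and 1, *Ldha*, was higher (1.43, SE 0.406), a call lost in DESeq2 (adjusted p = 0.0888), beside the same 11.8% lower and 8.14% higher. The glucose transporter gene *Slc2a1* had 21 UMIs.

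Hormone receptors proposed for tanycytic transport ranged from undetected to common. *Lepr*, the leptin receptor gene, had 3 UMIs and *Ghsr* and *Glp1r* had 0 each. *Insr*, the insulin receptor gene, had 56 UMIs in 46 nuclei and gave -0.14 against astrocyte-rule nuclei, and *Igf1r*, the insulin-like growth factor receptor gene, had 140 UMIs in 78 nuclei. A count of 0 in 454220 UMIs allows up to 6.60 CPM. *Fgfr3* and *Ednrb* were lower in tanycytes (log2 fold changes -4.54 and -4.80, SE 0.398 and 0.441), while *Fgfr1* (0.62) and *Fgfr2* (-0.02) did not pass. Of 20 genes listed, 11 were tested, 6 were lower and 0 higher, beside 11.8% and 8.14% of all genes tested.

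Of all genes tested, 11.8% were lower and 8.14% higher in tanycytes. Of 16 clock genes tested, 4 were lower and 0 higher, *Rorb* by 1.43 (log2 fold change -1.43, SE 0.273) among them, while *Clock* (0.37) and *Per2* (-0.59) did not pass. Immediate early genes were too rare to test between feeding groups: *Fos* had 1 UMI, *Egr1* 0 and *Jund* 32. Of 15 secreted factor and matrix genes tested, 7 were higher and 5 lower, beside 8.14% and 11.8% of all genes. Among the 21 glucocorticoid- and fasting-responsive genes tested, 2 were higher in tanycytes and 10 lower, the share higher being near that of all genes. *Tsc22d3*, a glucocorticoid-induced leucine zipper gene, was higher by 1.41 (SE 0.253), with an adjusted p of 0.0509 in DESeq2. Also of this list, *Fkbp5* (DESeq2 adjusted p = 0.0704), *Sesn1* (0.149) and *Klf9* (0.265) missed the threshold in DESeq2.

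Of markers of other cell types tested against astrocyte-rule nuclei, where 8.14% of all genes were higher and 11.8% lower, 1 of 3 oligodendrocyte genes was lower in tanycytes, 1 of 4 oligodendrocyte precursor genes was higher (*Vcan*) and 2 lower, 2 of 3 fibroblast and pars tuberalis genes were lower, 1 of 5 neuronal genes was higher (*Meg3*) and 1 lower, 1 of 2 endothelial and mural genes was higher (*Flt1*) and 1 lower (*Pdgfrb*), and 0 of 8 neuronal peptide genes, 0 of 1 microglial gene and 0 of 1 immediate early gene passed. Of 5 alpha tanycyte markers tested, 3 were higher and 1, *Slc7a11*, lower (log2 fold change -1.87, SE 0.278).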
